A study of Mus musculus with 9 samples.

Results

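The cortex of mice without *Fezf2* was compared with wild type cortex at postnatal day 0 (P0). RNA from each mouse's pair of cortical hemispheres gave 1 library, and the 7 libraries described here, 4 *Fezf2*-/- and 3 wild type, were all those of these genotypes among the 9 of the series. The other 2 were *Fezf2*-/-; *Fezf2-EnR*, which also carry a bacterial artificial chromosome that encodes FEZF2 joined to the engrailed repressor domain, and they entered the fit only to estimate the spread. The null allele holds a human placental alkaline phosphatase gene under the endogenous *Fezf2* promoter, so every cell of the animal lacks intact *Fezf2* from conception. The 3 litters were only partly crossed with genotype. Litter m1 held wild type replicates bc201 and bc202 and *Fezf2*-/- replicates bc205 and bc206, wild type replicate bc203 came from litter m2, and *Fezf2*-/- replicates bc204 and bc207 came from litter m3. Wild type replicate bc201 was the only female of the 7, as read from *Xist* and 4 genes of the Y chromosome. Reads per gene were scaled by the authors with 1 size factor for each library, and the scaled values are called normalized expression here. The libraries of the 2 genotypes held between 18716575 and 25127623 recovered reads. Of 24624 genes, the 16197 with a mean of at least 10 over the 9 libraries were tested.

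Projection neurons of the neocortex differ by layer and by the target of their axons. Corticothalamic neurons of layer 6 project to the thalamus, subcerebral neurons of layer 5 to the brainstem and spinal cord, and callosal neurons to the other hemisphere, while subplate neurons lie below layer 6 and are among the earliest neurons born. FEZF2 is a zinc finger transcription factor of deep layer neurons and their progenitors, best known for its role in the subcerebral identity.

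*Fezf2* itself (ENSMUSG00000021743.6, chr14:12342094-12348189 of GRCm38, minus strand) was read first, as a check of the labels. Its normalized expression was 1231.8, 1010.0 and 979.1 in the wild type libraries and 223.0, 192.9, 241.9 and 209.3 in the *Fezf2*-/- libraries. The genotypes did not overlap, and reads of the gene remained in every *Fezf2*-/- library (log2 fold change -2.30, SE 0.10, limma adjusted p = 1.38e-06). A log2 fold change here is the *Fezf2*-/- mean minus the wild type mean of log2(normalized expression + 1), which understates the change of low genes.

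Across the transcriptome 139 genes were called at a Benjamini-Hochberg adjusted p under 0.05 in limma, or 0.858% of those tested. Of these, 83 were higher (0.512% of all genes) and 56 were lower (0.346%) in *Fezf2*-/-. In each of the 139 the 2 genotypes did not overlap (13.0% of all genes tested did not). The exact two-sided permutation p was 0.029 for 132 of them, the smallest that 4 libraries against 3 allow, and 0.057 for the other 7. Both describe genes already called from the same libraries and are not separate support. The median log2 fold change over all genes was 0.00. The share of genes called was 0.772% in a fit with litter as a block and 1.44% within litter m1 alone. It was 1.36% with the 2 genotypes only, 0.803% with edgeR and 1.96% with DESeq2. Of the 139, 96 were also called with the block and 138 with the 2 genotypes only. A list of genes taken as named by the study held 17 of the 139 and left out 122. This list is not exact. The study's text does not hold *Nxph3*, *Adcyap1*, *Gsg1l*, *Kctd12*, *Etv6* or *Mdga1*, which are among the 17, and it does mention PAX7, which is among the 122. Of the 122, 26 have predicted, clone or pseudogene names.

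**Figure D1:**
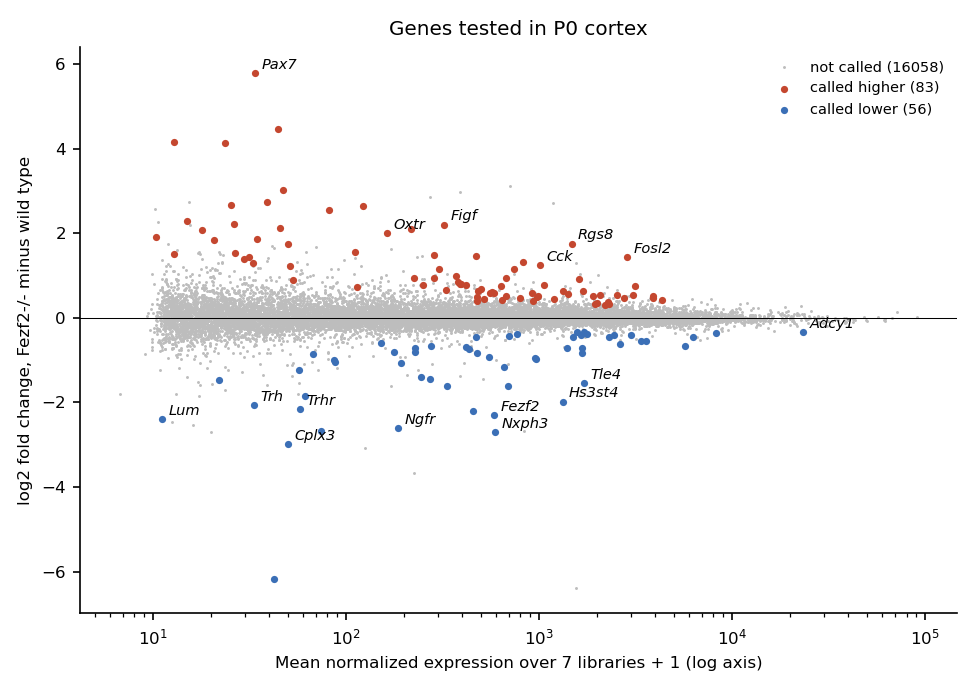
Log2 fold change of each tested gene (vertical axis) against its mean normalized expression over the 7 libraries plus 1 (horizontal log axis), with the 83 genes called higher in red, the 56 called lower in blue and genes not called in grey. Called falls of over 2 on the log2 scale include *Fezf2*, *Nxph3*, *Ngfr* and *Cplx3*, and *Pax7*, at 0 in wild type, lies highest at 5.80, a value that depends on the pseudocount.

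Markers of corticothalamic and subplate neurons held many of the largest falls. Of 16 corticothalamic markers 7 were called, all of them lower, and 12 of 16 lay below wild type without overlap (6.46% of all genes did so). The median log2 fold change of the list was -0.61. Of these 16, 8 are on the list of genes taken as named by the study, and of the other 8 *Hs3st4* and *Syt6* fell. *Hs3st4* encodes an enzyme that adds the rare 3-O sulfate to heparan sulfate. Its normalized expression was 2290, 2398 and 2233 in wild type and 584, 615, 570 and 575 in *Fezf2*-/-. The values within each genotype were close together and the genotypes lay far apart (log2 fold change -1.98, SE 0.07, limma adjusted p = 3.52e-07). *Syt6*, a synaptotagmin of layer 6, measured 1266, 1066 and 965 against 554, 362, 356 and 237. Replicate bc204 kept the most *Syt6* of the 4 *Fezf2*-/- libraries, with no overlap (log2 fold change -1.60, SE 0.22, limma adjusted p = 0.00593). *Tle4*, a Groucho co-repressor, and *Zfpm2*, a cofactor of GATA factors, fell by 1.55 and 1.61 on the log2 scale. *Gsg1l*, an auxiliary subunit of AMPA receptors, fell by 0.73, *Kctd12*, a subunit that shapes GABA-B receptor responses, by 0.67 and *Wnt7b*, a secreted Wnt ligand, by 0.55. The calls of *Kctd12* and *Wnt7b* were lost in the litter-block fit (adjusted p = 0.068 and 0.0615). In fits that left out 1 library and kept the *Fezf2*-/-; *Fezf2-EnR* libraries, *Kctd12* was not called without any one of the 7 (highest adjusted p = 0.171). *Wnt7b* was not called without bc201, bc202, bc204, bc205 or bc207 (highest 0.113). The *Fezf2*-/-; *Fezf2-EnR* libraries, which enter the spread of those fits, had 6348 and 10309 for *Kctd12*. Both genes were called with the 2 genotypes only (limma adjusted p = 0.000181 and 0.0213) and within litter m1 (0.000902 and 0.0359).

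The transcription factors best known for the corticothalamic class were not called. *Tbr1*, which specifies layer 6 neurons, measured 6527, 6254 and 6055 in wild type and 5660, 5864, 6517 and 6783 in *Fezf2*-/-, so that the genotypes overlapped (log2 fold change -0.02, SE 0.08, limma adjusted p = 0.953). *Sox5* measured 3853, 3848 and 4291 against 3140, 3642, 4326 and 4266 (log2 fold change -0.07, SE 0.13, limma adjusted p = 0.888). *Foxp2*, a forkhead factor of layer 6, measured 820, 742 and 742 against 636, 276, 224 and 161. Replicate bc204 lay far above the other *Fezf2*-/- libraries, and the gene was not called (log2 fold change -1.44, SE 0.35, limma adjusted p = 0.123). *Foxp2* was called without replicate bc204, at -1.83, within litter m1, and in both count tests, which also lack that library.

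Among the 15 subplate and layer 6b markers, 6 fell and 1, *Nr4a2*, rose, with a list median of -0.35 (0.858% of all genes were called). The list was split, with 7 positive and 8 negative values. Without overlap 7 lay below wild type and 3 above it (6.46% and 6.53% of all genes did so). Of the 13 outside the list of genes taken as named by the study, 4 fell (*Cplx3*, *Ngfr*, *Trh* and *Nxph4*). *Cplx3* (chr9:57599992-57606281), a complexin that binds the vesicle fusion machinery, measured 103, 78.9 and 114 in wild type and 6.03, 14.2, 15.6 and 12.5 in *Fezf2*-/-. Every *Fezf2*-/- library lay far below every wild type library (log2 fold change -2.99, SE 0.29, limma adjusted p = 0.00059). *Ngfr* (chr11:95568818-95587735), the p75 neurotrophin receptor, measured 340, 390 and 337 against 50.2, 56.7, 54.2 and 73.1. Its *Fezf2*-/- level was low in all 4 mice (log2 fold change -2.60, SE 0.16, limma adjusted p = 1.02e-05). Of the neurexophilins, secreted ligands of neurexins, *Nxph3* and *Nxph4* fell, with log2 fold changes of -2.70 and -1.45, while *Nxph1* and *Nxph2* were not called (0.24 and 0.08). *Nxph3* (chr11:95509845-95514570) measured 1188, 1160 and 1094 against 184, 145, 195 and 184, far below wild type in every mouse (SE 0.10, limma adjusted p = 3.52e-07). *Ctgf*, a matricellular protein and classical subplate marker, measured 404, 398 and 335 against 127, 171, 164 and 117 and fell by 1.40. The other 8 subplate markers tested were not called, among them the orexin receptor gene *Hcrtr2* at -0.35 and *Moxd1* at 0.66. Because these are bulk samples, fewer cells of a type and less RNA of a gene per cell cannot be told apart.

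**Figure D2:**
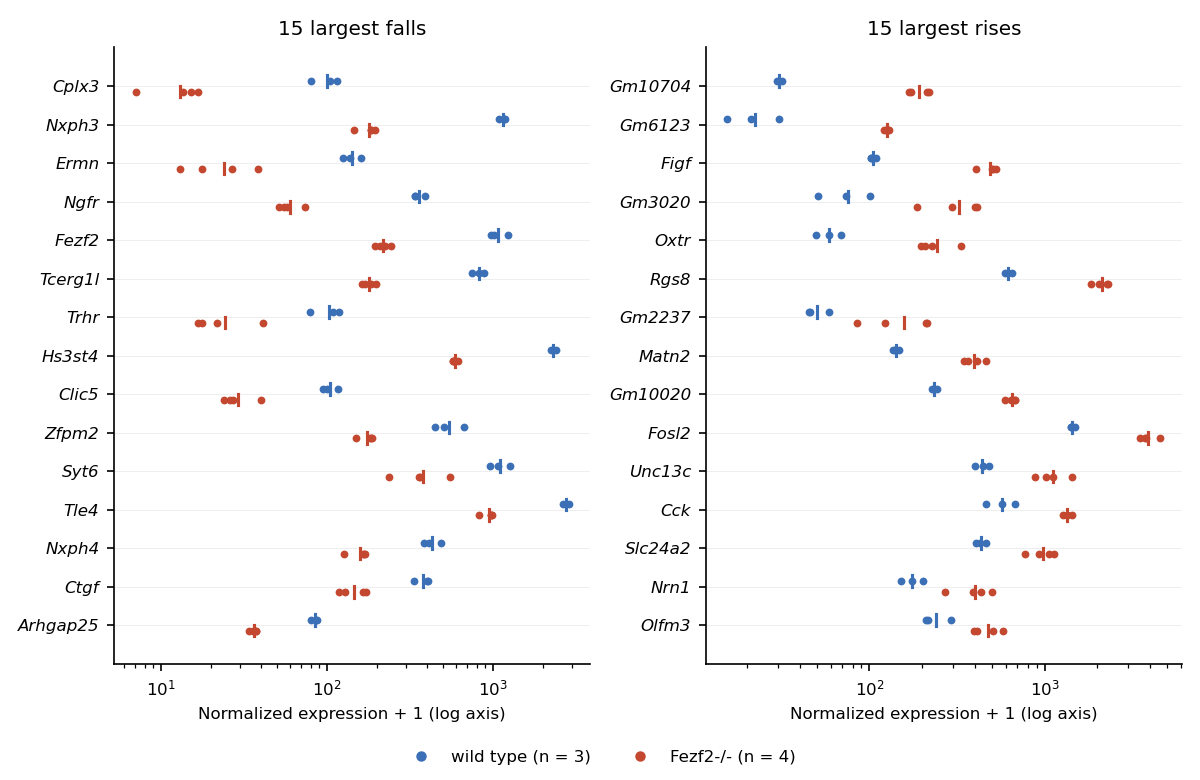
Normalized expression plus 1 (horizontal log axis) in each library for the 15 largest falls (left) and the 15 largest rises (right) among called genes with a mean of at least 50. Points are libraries, 3 wild type in blue and 4 *Fezf2*-/- in red, and vertical ticks are group means. The lack of overlap in the 30 genes is a condition of the choice and not a result.

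Other large falls were in genes of varied roles. *Ermn*, a cytoskeletal protein of oligodendrocytes, measured 136, 124 and 159 in wild type and 37.2, 12, 16.7 and 25.8 in *Fezf2*-/- (log2 fold change -2.67, SE 0.37, limma adjusted p = 0.00584). The other 13 oligodendrocyte genes tested were not called, and *Mbp*, the major myelin gene, measured 1031, 1064 and 1037 against 969, 1045, 1005 and 1069. The list had a median of 0.24. The exons of *Ermn* overlap those of *Galnt5*, so its reads are uncertain. *Tcerg1l* fell by 2.20 on the log2 scale, *Clic5*, a chloride intracellular channel protein, by 1.85 and *Arhgap25*, a GTPase activator for Rac, by 1.22. *Nfe2l3*, a bZIP transcription factor, measured 935, 944 and 1024 against 384, 393, 473 and 468 (log2 fold change -1.17, SE 0.11, limma adjusted p = 0.000282). *Oma1*, a protease of the mitochondrial inner membrane, fell by 1.07, the kinesin *Kif26a* by 0.95 and *Stac2*, an adaptor of calcium channels, by 0.92. *Adcy1*, the calcium-stimulated adenylyl cyclase, was the most abundant gene called, at 25327, 26226 and 27577 against 20134, 19949, 21726 and 22466. Its fall was small (log2 fold change -0.33, SE 0.06, limma adjusted p = 0.0288), and it was not called in the litter-block fit (adjusted p = 0.0961) or without bc201, bc202, bc203, bc204, bc205 or bc206.

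Layer 5 and callosal markers held fewer calls. Of 19 subcerebral markers 4 fell and none rose, with a median of -0.40. *Tcerg1l* was the largest, followed by *Adcyap1* at -0.81, *Bhlhe22* at -0.45 and *Ldb2* at -0.41. *Bcl11b*, the zinc finger factor required for corticospinal axons, measured 4241, 4137 and 4198 in wild type and 5287, 3591, 2821 and 4193 in *Fezf2*-/-. Replicate bc204 alone lay above wild type, bc205 and bc206 lay below it, and the gene was not called (log2 fold change -0.11, SE 0.17, limma adjusted p = 0.85). Its log2 fold change was -0.35 with the litter block and -0.40 within litter m1, and it was called in neither (limma adjusted p = 0.301 and 0.136). *Crym*, a thyroid hormone binding protein of subcerebral neurons, measured 282, 221 and 304 in wild type and 152 ± 60.6 (SD, n = 4) in *Fezf2*-/-, where replicate bc206 was lowest at 67.8, without overlap but not called (log2 fold change -0.92, SE 0.32, limma adjusted p = 0.309) except by DESeq2 (0.032). Among 26 callosal and upper layer markers *Mdga1*, a regulator of synaptic adhesion, rose (0.47) and *Dkk3*, a member of the Dickkopf family, fell (-0.71), with a list median of 0.05 (0.12 with the litter block). Of the 26, 9 lay above wild type without overlap (6.53% of all genes did so) and 2 below it (6.46%). Limma on the 2 genotypes only called 4 and DESeq2 called 8 (1.36% and 1.96% of all genes). *Btbd3*, which orients dendrites, measured 1374, 1336 and 1083 against 2931, 2421, 1883 and 3073 and was not called (log2 fold change 1.01, SE 0.26, limma adjusted p = 0.143). *Btbd3* was called with the 2 genotypes only (limma adjusted p = 0.0186), within litter m1 (0.0216), by edgeR (0.0439) and by DESeq2 (1.2e-08). In the litter-block fit, *Bhlhe22*, *Ldb2* and *Mdga1* were not called (adjusted p = 0.0856, 0.0911 and 0.0864). *Bhlhe22*, *Ldb2* and *Dkk3* were not called without any one of the 7 libraries (highest adjusted p = 0.214, 0.166 and 0.216), and *Mdga1* not without any one but bc204 (highest 0.182). With the 2 genotypes only, *Bhlhe22*, *Ldb2*, *Dkk3* and *Mdga1* were called (limma adjusted p = 0.00608, 0.0283, 0.0283 and 0.0334).

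Of 7 markers of claustrum and insula, 6 had positive values (median 0.53) and 2 rose. *Gnb4*, a G protein beta subunit, measured 2992, 3126 and 3184 in wild type and 4202, 4414, 4578 and 4691 in *Fezf2*-/-. The genotypes were well separated (log2 fold change 0.53, SE 0.06, limma adjusted p = 0.00193). *Nr4a2*, an orphan nuclear receptor that marks both claustrum and subplate, measured 2179, 2393 and 2156 against 3357, 3462, 3575 and 4796. Replicate bc207 was the highest of the 4 (log2 fold change 0.75, SE 0.13, limma adjusted p = 0.0248). *Nr4a2* was not called in the litter-block fit (adjusted p = 0.0599) or without bc201, bc202, bc203 or bc206 (highest 0.119). The direction of *Nr4a2* was opposite to that of the 6 subplate markers that fell.

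Broader genes of excitatory neurons moved in both directions, with 2 of 17 called higher, 2 called lower and a median of 0.05. *Slc17a6*, the vesicular glutamate transporter VGLUT2, measured 676, 673 and 784 against 1008, 1025, 975 and 1296 (log2 fold change 0.59, SE 0.11, limma adjusted p = 0.0367). *Nrn1*, the GPI-anchored neurite growth protein neuritin, measured 173.2, 150.4 and 202.3 against 431.9, 391.2, 270.0 and 501.7 (log2 fold change 1.16, SE 0.23, limma adjusted p = 0.0466). *Emx1*, the homeobox gene of the dorsal telencephalon, went the other way, at 512, 579 and 571 against 428, 422, 376 and 409. These 3 genes were separated between genotypes (log2 fold change of *Emx1* -0.44, SE 0.08, limma adjusted p = 0.0296). In the litter-block fit *Slc17a6* and *Nrn1* were not called (adjusted p = 0.0619 and 0.051). *Slc17a6* and *Emx1* were not called without any one of the 7 libraries (highest adjusted p = 0.205 and 0.19), nor *Nrn1* without any one but bc206 (highest 0.245).

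**Figure D3:**
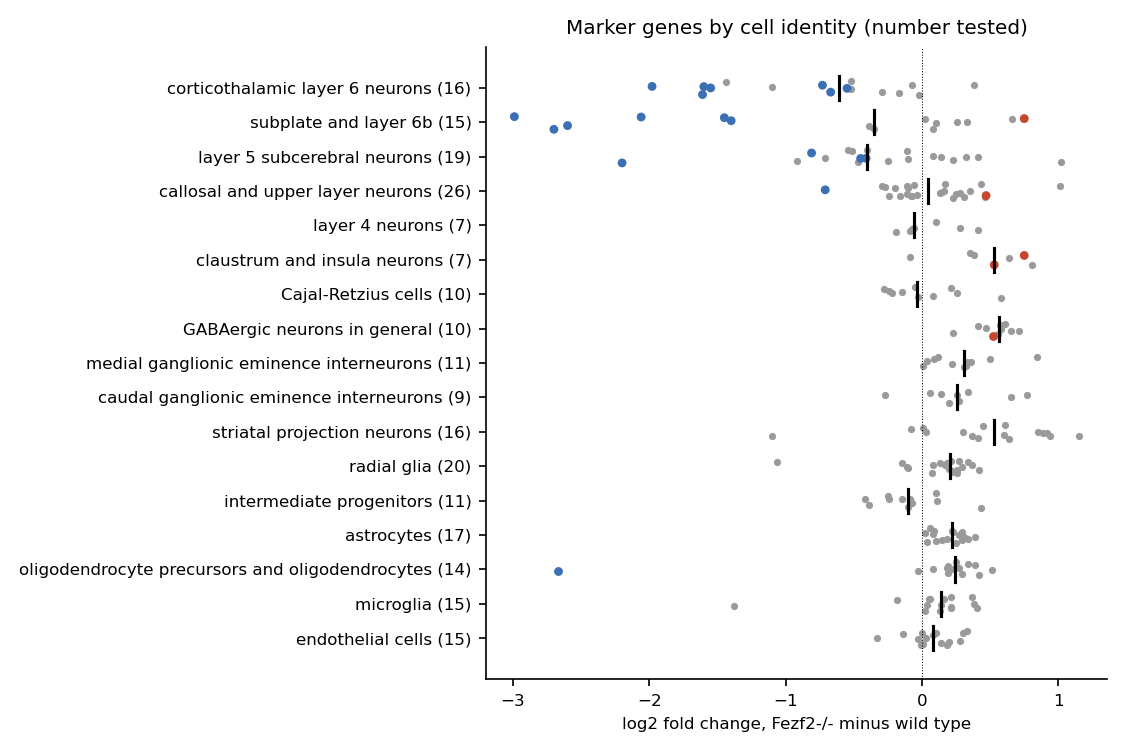
Log2 fold change (horizontal axis) of each tested marker gene, one row per cell identity with the number tested in parentheses. Coloured points are called higher (red) or lower (blue), grey points are not called, and black ticks are medians, which run from -0.61 in corticothalamic neurons to 0.57 in GABAergic neurons.

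Markers of GABAergic neurons, most of which reach the cortex by migration, had positive values with 1 call. All 10 general GABAergic genes were above wild type without overlap (6.53% of all genes did so), with a median of 0.57, and *Dlx6os1*, the antisense RNA of the *Dlx5* and *Dlx6* locus, rose. *Dlx6os1* measured 853, 763 and 746 in wild type and 1308, 1110, 1056 and 1062 in *Fezf2*-/- (log2 fold change 0.52, SE 0.09, limma adjusted p = 0.0288). *Gad1*, which makes GABA, measured 1112, 1031 and 1009 against 1998, 1515, 1433 and 1997 and was not called in the fit of all 9 libraries (log2 fold change 0.71, SE 0.18, limma adjusted p = 0.149). *Gad1* was called with the 2 genotypes only (limma adjusted p = 0.0274) and within litter m1 (0.016). The count of called genes in this list of 10 was 5 in each of those fits and 0 with the litter block. The 4 *Fezf2*-/- libraries were above wild type in both genes, and replicate bc206 had the least *Gad1* of the 4. Markers of interneurons from the medial ganglionic eminence had positive values in 11 of 11 (median 0.31) and those of the caudal eminence in 8 of 9 (median 0.26). Limma on all 9 libraries without the litter block called 0 in either list, where 5 and 3 had an unadjusted p under 0.05. DESeq2 called 3 and 1. Limma on the 2 genotypes only called 1 in each of these lists, and so did limma with the litter block. *Sst*, the peptide of a large interneuron class, measured 639, 659 and 619 against 1274, 1086, 928 and 1317 (log2 fold change 0.84, SE 0.22, limma adjusted p = 0.169), and was called with the 2 genotypes only (0.0088). *Dlx6os1* was not called in the litter-block fit (adjusted p = 0.0691) or without any one of the 7 libraries (highest 0.17).

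Markers of the neighbouring striatum moved with 1 library. *Tac1* measured 317 in *Fezf2*-/- replicate bc204 and 39.9 to 74.1 in the other 3, and *Adora2a* 368 against 79.2 to 111. Over 16 striatal markers 14 were positive, with 0 called by limma on all 9 libraries and 2 at an unadjusted p under 0.05. DESeq2, which lacks replicate bc204, called 1. The DESeq2 call, also 1 of the 2, was *Ppp1r1b*, which fell and is on the corticothalamic list too (DESeq2 log2 fold change -1.40, adjusted p = 4.13e-16). The summed level of the list was 11923 to 13245 in wild type, 16769 in replicate bc204 and 10840 to 12234 in the other 3. Without replicate bc204 and with the 2 genotypes alone, the striatal median went from 0.52 to 0.06, the GABAergic median from 0.57 to 0.43 with 10 of 10 still positive, and that of the medial eminence list from 0.31 to 0.23. In the litter-block fit these medians were -0.08, 0.39 and 0.16. The part of striatal tissue in the GABAergic values was otherwise not tested.

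Other cell identities held few or no called genes. No gene was called by limma on all 9 libraries without the litter block among markers of layer 4 neurons, Cajal-Retzius cells, hippocampal neurons, radial glia, intermediate progenitors, astrocytes, microglia, endothelial cells, pericytes or proliferating cells. At an unadjusted p under 0.05 these 10 lists held in order 1, 2, 4, 9, 1, 7, 3, 2, 2 and 0 genes, and DESeq2 called 3 among radial glia and 0 in the other 9. With the 2 genotypes only, and also with the litter block, limma called 1 gene among radial glia and 0 in the other 9. In both fits the radial glia gene was *Fam107a*, which fell (log2 fold change -1.06 and -1.20, limma adjusted p = 0.0489 and 0.0453). *Fam107a* was also called by DESeq2 (0.0316). It lies at -4.03 Mb from *Fezf2* and had 24.9 and 17.5 in *Fezf2*-/-; *Fezf2-EnR*. All 17 astrocyte genes had positive values, with a median of 0.22 that was 0.09 with the litter block, and 3 did not overlap (13.0% of all genes did not). Among 12 genes of meningeal fibroblasts *Lum*, which encodes the matrix proteoglycan lumican, alone fell. *Lum* measured 22.8, 17.9 and 17.9 in wild type and 3.01, 4.36, 1.04 and 4.15 in *Fezf2*-/-, while the fibroblast collagen *Col1a1* overlapped at 0.01 (log2 fold change of *Lum* -2.40, SE 0.39, limma adjusted p = 0.0176). The call of *Lum* was lost without bc201, bc202 or bc203 (highest adjusted p = 0.0979).

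Genes of neuropeptides and their receptors moved in both directions. Among 19 tested genes of peptides and secreted hormones *Cck* and *Igf1* rose and *Trh* and *Adcyap1* fell, and the list median was 0.47 (0.29 with the litter block). The promoters of the 3 neuropeptide genes, and that of *Nr4a2*, are shown because genes that respond to cyclic AMP and activity often hold the core of a cyclic AMP response element (CRE), TGACG. Each sequence runs from 250 bases before to 50 after the RefSeq start (GRCm38.p6), with the core on either strand in capitals.
Trh, chr6:92244601-92244900, minus strand: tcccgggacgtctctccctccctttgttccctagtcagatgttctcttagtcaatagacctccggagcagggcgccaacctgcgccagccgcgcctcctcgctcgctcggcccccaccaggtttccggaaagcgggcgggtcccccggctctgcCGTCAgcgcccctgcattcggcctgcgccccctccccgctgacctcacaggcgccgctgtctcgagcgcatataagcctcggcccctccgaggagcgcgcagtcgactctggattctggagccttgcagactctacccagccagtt
Adcyap1, chr17:93198918-93199217, plus strand: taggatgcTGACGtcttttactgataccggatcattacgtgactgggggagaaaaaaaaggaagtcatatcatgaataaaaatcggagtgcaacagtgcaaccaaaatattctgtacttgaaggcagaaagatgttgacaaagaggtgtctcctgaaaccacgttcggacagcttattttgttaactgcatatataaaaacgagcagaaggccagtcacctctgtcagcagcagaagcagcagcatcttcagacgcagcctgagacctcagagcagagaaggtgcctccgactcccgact
Cck, chr9:121495645-121495944, minus strand: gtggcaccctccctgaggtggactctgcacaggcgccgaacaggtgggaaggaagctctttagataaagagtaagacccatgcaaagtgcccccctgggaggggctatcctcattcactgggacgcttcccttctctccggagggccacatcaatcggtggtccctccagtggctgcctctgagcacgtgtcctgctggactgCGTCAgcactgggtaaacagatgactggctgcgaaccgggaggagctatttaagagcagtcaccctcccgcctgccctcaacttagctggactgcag
Nr4a2, chr2:57123954-57124253, minus strand: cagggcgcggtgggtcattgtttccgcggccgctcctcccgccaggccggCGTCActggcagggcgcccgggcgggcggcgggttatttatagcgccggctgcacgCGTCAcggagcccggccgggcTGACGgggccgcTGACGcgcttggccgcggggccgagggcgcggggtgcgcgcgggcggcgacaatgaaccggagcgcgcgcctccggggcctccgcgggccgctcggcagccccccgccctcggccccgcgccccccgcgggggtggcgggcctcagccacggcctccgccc
*Trh*, *Adcyap1* and *Cck* held 1 core each and *Nr4a2* held 4. Of 11128 tested genes with a promoter in that table, 34.8% held the core on either strand, beside 12 of the 36 called lower (33.3%) and 15 of the 60 called higher (25.0%). The AP-1 motif TGANTCA, which is its own reverse complement, was in 5.63% of all, 3 of the 36 and 4 of the 60. The EGR motif GCGGGGGCG on either strand was in 6.60%, 4 and 6. These shares describe letters in the window and not sites in use.

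*Trh*, which encodes thyrotropin-releasing hormone, measured 64.2, 55.8 and 52.7 in wild type and 15.1, 18.5, 9.38 and 10.8 in *Fezf2*-/- (log2 fold change -2.06, SE 0.25, limma adjusted p = 0.00267). Its receptor gene *Trhr* measured 118, 108 and 78 against 40.2, 20.7, 16.7 and 15.8 (log2 fold change -2.15, SE 0.36, limma adjusted p = 0.02). Both ligand and receptor fell, each without overlap. *Adcyap1*, the precursor of the peptide PACAP, measured 217, 228 and 258 against 134, 131, 134 and 133, a narrow band in *Fezf2*-/- (log2 fold change -0.81, SE 0.11, limma adjusted p = 0.00593). Its receptor gene *Adcyap1r1* went the other way, at 3700, 4026 and 3189 against 4641, 4788, 4993 and 4931 (log2 fold change 0.42, SE 0.08, limma adjusted p = 0.0298). *Cck*, cholecystokinin, measured 463, 567 and 677 against 1267, 1439, 1346 and 1338, so that it rose in all 4 mice (log2 fold change 1.26, SE 0.14, limma adjusted p = 0.00134). The gene of its brain receptor, *Cckbr*, measured 17.7, 11.6 and 20 against 70.3, 40.3, 35.5 and 87.2. It did not overlap and had a large value, but was not called (log2 fold change 1.70, SE 0.42, limma adjusted p = 0.129) except with the 2 genotypes only (0.044) and by DESeq2 (0.0209). *Igf1*, insulin-like growth factor, measured 299, 225 and 256 against 480, 446, 420 and 543 (log2 fold change 0.86, SE 0.17, limma adjusted p = 0.0478). *Trhr* was not called without bc201, bc202, bc205, bc206 or bc207 (highest adjusted p = 0.114), *Adcyap1r1* without any one but bc202 (0.11) and *Igf1* without any one of the 7 (0.254). *Igf1* was also not called in the litter-block fit (adjusted p = 0.0813). With the 2 genotypes only, *Trhr*, *Adcyap1r1* and *Igf1* were called (limma adjusted p = 0.0118, 0.0309 and 0.00978).

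Of 58 tested receptors for peptides, monoamines and acetylcholine 5 rose and *Trhr* fell, with a median of 0.27 that was 0.07 with the litter block. *Oxtr*, the oxytocin receptor (chr6:112473683-112489943), measured 67.6, 57.9 and 48.5 in wild type and 194.8, 227.7, 207.5 and 332.2 in *Fezf2*-/-. Each *Fezf2*-/- library was well above wild type (log2 fold change 2.01, SE 0.33, limma adjusted p = 0.02). The serotonin receptor *Htr1a*, which lowers excitability, measured 131.8, 144.1 and 153.9 against 293.3, 275.7, 204.3 and 359.6 (log2 fold change 0.95, limma adjusted p = 0.0318). *Htr6*, a serotonin receptor coupled to cyclic AMP, measured 33, 36.8 and 32.7 against 76.3, 55.6, 55.2 and 73.9 (log2 fold change 0.90, limma adjusted p = 0.0484). *Chrm2*, a muscarinic receptor, rose by 0.81 (limma adjusted p = 0.0181). *Htr2c* and *Hrh1* had values of 1.16 and 1.34 without overlap and were not called (limma adjusted p = 0.422 and 0.236), although *Htr2c* was with the 2 genotypes only (0.0419) and by DESeq2 (0.0143). Downstream of such receptors, *Rgs8*, which ends signalling by Gi and Go proteins (chr1:153653025-153700323), measured 618, 650 and 596 against 2037, 1840, 2310 and 2274. *Rgs8* was far above wild type in every *Fezf2*-/- mouse (log2 fold change 1.76, SE 0.20, limma adjusted p = 0.00196), and its relative *Rgs16* rose by 0.79 (limma adjusted p = 0.00716). *Htr6* was not called in the litter-block fit (adjusted p = 0.119). Leaving out 1 library ended the calls of *Oxtr* (bc201, bc202, bc203, bc205 or bc207, highest adjusted p = 0.0973), *Htr1a* (any but bc206, highest 0.168), *Htr6* (any of the 7, highest 0.191), *Chrm2* (bc201, bc202, bc206 or bc207, highest 0.0787) and *Rgs16* (bc201, 0.0504). With the 2 genotypes only, all of these were called, *Oxtr* at a limma adjusted p of 0.000977.

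**Figure D4:**
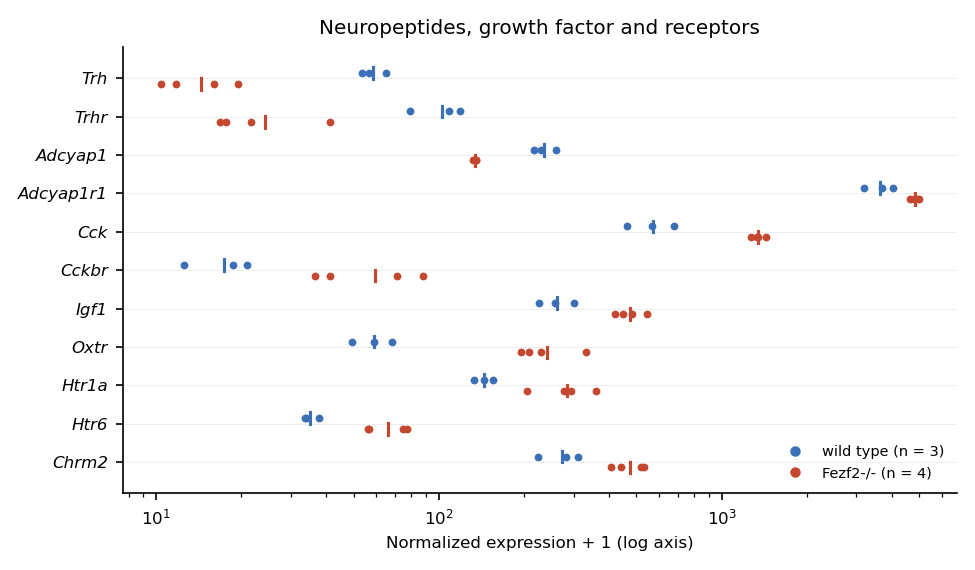
Normalized expression plus 1 (horizontal log axis) of 3 neuropeptide genes, *Igf1* and 7 receptor genes in each of 3 wild type (blue) and 4 *Fezf2*-/- (red) libraries, with ticks at group means. *Trh*, *Trhr* and *Adcyap1* lie lower in *Fezf2*-/- and the other 8 higher, of which *Cckbr* was not called.

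Immediate early genes are those that neurons switch on first after activity. Of 18 tested, *Fosl2*, *Nr4a2* and *Nr4a3* rose and none was called lower. Above wild type without overlap lay 8 of the 18 (6.53% of all genes did so), and the list median was 0.46 (0.34 with the litter block). *Fosl2*, a partner in AP-1, measured 1489, 1418 and 1419 in wild type and 3735, 3508, 3821 and 4585 in *Fezf2*-/- (log2 fold change 1.43, SE 0.08, limma adjusted p = 7.45e-06). *Nr4a3*, an orphan nuclear receptor, measured 1199, 880 and 1106 against 1740, 2072, 1983 and 2272 (log2 fold change 0.93, SE 0.13, limma adjusted p = 0.00577). Both were separated between genotypes by more than the spread within either. The best known members were not called: *Fos* measured 25.4, 24.2 and 10.5 against 39.2, 41.4, 61.5 and 36.5 (limma adjusted p = 0.288), and *Egr1* overlapped at 471, 445 and 213 against 395, 596, 548 and 397 (limma adjusted p = 0.626). *Egr3* had 1.04 without overlap (limma adjusted p = 0.129) and was called within litter m1 (0.00569) and by DESeq2 (0.00111). The summed level of the 18 was 8698 to 8771 in wild type and 13573 to 16139 in *Fezf2*-/-. The 3 called genes made up most of the difference, at 4680 to 4866 against 8833 to 11652, and the other 15 summed to 3887 to 4062 against 4474 to 4723. Of 17 later activity-regulated genes *Nrn1* alone was called.

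The genes of the synapse that were called moved in both directions. Among 48 genes of vesicle release *Unc13c* rose and *Cplx3* and *Syt6* fell, with a median of 0.06. *Unc13c*, which primes vesicles, measured 480, 399 and 443 in wild type and 1119, 1022, 882 and 1436 in *Fezf2*-/-, all 4 higher (log2 fold change 1.32, SE 0.18, limma adjusted p = 0.00593). Among 65 genes of synaptic adhesion *Lrrtm4* (0.60) and *Mdga1* rose and *Nxph3* and *Nxph4* fell. These were 3 calls of 48 and 4 of 65, beside 0.858% of all genes tested. DESeq2 called 7 of the 48 and 12 of the 65, beside 1.96% of all genes. *Slc24a2*, a potassium-dependent sodium and calcium exchanger of neurons, measured 463, 403 and 429 against 773, 924, 1138 and 1063 (log2 fold change 1.16, SE 0.16, limma adjusted p = 0.00539). Of the channels and receptors tested, 0 of 78 potassium channels, 0 of 35 sodium, calcium and HCN channels, 0 of 24 glutamate receptors and 0 of 15 GABA receptors were called by limma on all 9 libraries without the litter block. In that fit 15, 3, 12 and 4 had an unadjusted p under 0.05. Limma on the 2 genotypes only called 1, 1, 2 and 1 of them, and DESeq2 called 3, 1, 5 and 1. Limma called 1, 0, 0 and 0 with the litter block, and 7, 0, 2 and 0 within litter m1 (1.44% of all genes). The genotypes did not overlap in 8, 7, 13 and 4 (13.0% of all genes), and of the 13 glutamate receptors 10 were higher. Exons of 36 of the 139 called genes overlap those of another annotated gene, so part of their reads is uncertain. Of genes described here these include *Ermn*, *Hs3st4*, *Syt6*, *Ctgf*, *Sorcs1*, *Ephb1*, *Kctd12*, *Akap7*, *Wnt7b*, *Rgma*, *Dlx6os1*, *Lrrtm4*, *Angpt1*, *Prkca*, *Rgs8*, *Rgs16*, *Chrm2*, *Nrn1*, *Matn2*, *Galnt14*, *Plppr4*, *Schip1*, *Iqschfp* and *Gm10704*. *Lrrtm4*, an organizer of excitatory synapses, was not called without any one library but bc206 (highest adjusted p = 0.17).

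Of 15 genes of VEGF and angiopoietin signalling *Figf* and *Angpt1* rose. *Figf*, which encodes vascular endothelial growth factor D (chrX:164373378-164402650), measured 101, 108 and 101 in wild type and 404, 524, 509 and 502 in *Fezf2*-/-. The wild type values were almost equal and every *Fezf2*-/- value was far above them (log2 fold change 2.21, SE 0.11, limma adjusted p = 2.68e-06). *Angpt1*, the ligand of the endothelial receptor TIE2, rose by 0.62 (limma adjusted p = 0.00509), and the receptors *Kdr*, *Flt1* and *Tek* had values of 0.20, 0.08 and 0.10 and were not called. *Matn2*, a matrilin that links matrix fibres, measured 139, 147 and 135 against 412, 365, 347 and 460 (log2 fold change 1.48, SE 0.18, limma adjusted p = 0.0023). Among 31 genes of heparan sulfate *Sulf1*, which removes 6-O sulfate outside the cell, and the proteoglycan *Gpc4* rose, by 0.95 and 0.67, as *Hs3st4* fell. Of 48 Wnt genes *Fzd10*, a Frizzled receptor, rose, at 14.4, 17.9 and 19 against 39.2, 44.7, 48 and 41.5, while *Wnt7b* and *Dkk3* fell (log2 fold change of *Fzd10* 1.30, SE 0.18, limma adjusted p = 0.00605). In axon guidance the netrin receptor *Dcc* rose (0.52) and the repulsive cue *Rgma* fell (-0.54). *Dcc* and *Sulf1* were not called in the litter-block fit (adjusted p = 0.114 and 0.0502). Leaving out 1 library ended the calls of *Sulf1* (bc201, bc202 or bc206, highest adjusted p = 0.14), *Gpc4* (bc202, bc203, bc205, bc206 or bc207, highest 0.184), *Dcc* (any but bc205, highest 0.171) and *Rgma* (bc201 or bc202, highest 0.0671).

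Genes of intracellular signalling and of the cell surface were also called. *Ephb1*, an ephrin receptor, measured 2375, 2238 and 2007 in wild type and 1385, 1297, 1092 and 1232 in *Fezf2*-/-, the 1 call among 21 ephrins and Eph receptors (log2 fold change -0.82, SE 0.09, limma adjusted p = 0.00089). *Akap7*, an anchor of protein kinase A, measured 3490, 2981 and 3314 against 2014, 1985, 2299 and 2214 (log2 fold change -0.62, SE 0.08, limma adjusted p = 0.00581), and its relative *Akap12* fell by 0.45 (limma adjusted p = 0.0299). Both genes of kinase anchors were lower in all 4 mice. *Prkca*, a protein kinase C, rose, at 1254, 1171 and 1402 against 2066, 1824, 1815 and 2263 (log2 fold change 0.64, SE 0.09, limma adjusted p = 0.00754). *Sorcs1*, a sorting receptor, measured 1247, 1369 and 1374 against 634, 503, 770 and 861 (log2 fold change -0.97, SE 0.15, limma adjusted p = 0.0133). *Ptch1*, the Hedgehog receptor, rose by 0.49 (limma adjusted p = 0.028) and *Kitl*, the ligand of the receptor KIT, by 0.46 (limma adjusted p = 0.0119). *Col23a1*, a transmembrane collagen, measured 291, 275 and 306 against 196, 177, 157 and 181 and was the 1 call among 35 collagens (log2 fold change -0.71, SE 0.10, limma adjusted p = 0.00593). *Thbs2*, a matrix thrombospondin, fell by 1.05 (limma adjusted p = 0.0248). *Akap12* was not called in the litter-block fit (adjusted p = 0.0648) or without bc201, bc202, bc203, bc205 or bc206 (highest 0.168). Leaving out 1 library ended the calls of *Prkca* (bc201 or bc202, highest adjusted p = 0.0562), *Sorcs1* (bc201, bc202 or bc203, highest 0.0797), *Ptch1* (bc201, bc202, bc204 or bc207, highest 0.171), *Kitl* (bc202 or bc203, highest 0.0859) and *Thbs2* (bc201, bc202, bc204, bc205 or bc206, highest 0.158).

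*Pax7* rose from no reads at all. This paired box factor of the dorsal neural tube and of muscle stem cells (chr4:139737062-139833528, minus strand) was at 0 in all 3 wild type libraries and at 39.2, 81.7, 66.7 and 42.4 in *Fezf2*-/-. With a floor of 3 reads per wild type library it was at least 19.5-fold higher, at 57.5 ± 20.3 (SD, n = 4) in *Fezf2*-/- (limma adjusted p = 1.89e-05). The 2 *Fezf2*-/-; *Fezf2-EnR* libraries had 0 and 1.09. Among 48 homeobox and paired box factors *Zfhx4* also rose, by 0.80 (limma adjusted p = 0.00368), and *Emx1* alone fell.

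The 2 largest housekeeping groups held no called gene. Of 95 genes of the mitochondrial respiratory chain 9 were positive, with a median of -0.09, and of 75 cytosolic ribosomal proteins 3 were, with the same median. In the litter-block fit these medians were -0.09 and -0.02. Signalling and adhesion groups with 0 calls by limma on all 9 libraries without the litter block were BMP, TGF-beta and activin (56 genes, median 0.04), FGF (25, 0.16), Notch (18, 0.16), retinoic acid (19, 0.18), semaphorins and plexins (31, 0.09), cadherins (36, 0.12) and clustered protocadherins (56, 0.04). With the litter block the medians of the FGF, Notch and retinoic acid lists were 0.04, 0.05 and 0.04. In these 7 lists 13, 7, 2, 4, 11, 13 and 0 genes had an unadjusted p under 0.05 and DESeq2 called 0, 0, 0, 0, 3, 4 and 0. Limma on the 2 genotypes only called 1 gene each among semaphorins and cadherins and 0 in the other 5, and so did limma with the litter block. By limma 0 genes of either housekeeping list were called, 9 and 0 had an unadjusted p under 0.05, and DESeq2 called 1 and 0.

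The share of called genes was higher around *Fezf2* on chromosome 14 than elsewhere. Of 591 genes tested there 21 were called (3.55%, against 0.858% overall), and 19 of the 97 genes within 10 Mb of *Fezf2* other than itself were called (19.6%), 16 of them higher. More than 5 Mb before *Fezf2* the count was 12 of 28, and it was 0 of 288 from 10 to 50 Mb after it. Most were predicted genes with near-identical copies, among which reads can be split, so their levels are uncertain. *Gm3500*, at -6.96 Mb from *Fezf2*, measured 1.69, 2.1 and 3.16 in wild type and 67.3, 71.9, 109 and 49 in *Fezf2*-/-. *Gm6356*, at -5.37 Mb, went the other way, at 65, 28.4 and 196 against 0 in all 4, at least 32.4-fold lower with a floor of 3 reads per library. The *Fezf2*-/-; *Fezf2-EnR* libraries, which carry the same null allele, had 59.7 and 69.9 for *Gm3500* and 1 and 1.09 for *Gm6356*. Genes with unique names were among them too. *Samd8*, a sphingomyelin synthase relative 9.40 Mb away, measured 2354, 2350 and 2569 against 3499, 3436, 3627 and 3674, and 3416 and 3742 in *Fezf2*-/-; *Fezf2-EnR* (log2 fold change 0.55, SE 0.06, limma adjusted p = 0.00089). DNA linked to the targeted allele and loss of the gene cannot be told apart here. Within litter m1 alone, 20 of the 21 were called and all 21 kept their sign.

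**Figure D5:**
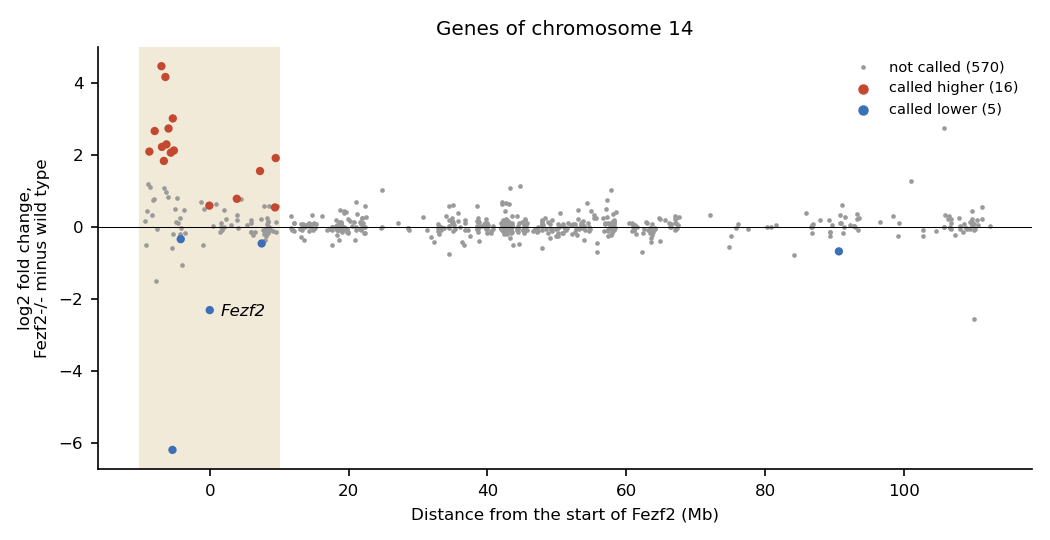
Log2 fold change (vertical axis) of the 591 tested genes of chromosome 14 against the distance of their start from that of *Fezf2* in Mb (horizontal axis), with 10 Mb either side shaded. Called genes are red (16 higher) or blue (5 lower), and all but *Kctd12*, 90.63 Mb away, lie in the shaded stretch.

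Of 8 called processed pseudogenes on other chromosomes 6 rose and *Gm10224* (-0.85) and *Rpl30-ps9* (-1.47) fell. *Gm8420* on chromosome 1 measured 1.69, 1.05 and 1.05 in wild type and 39.2, 47.9, 35.5 and 32.4 in *Fezf2*-/- (log2 fold change 4.13, SE 0.23, limma adjusted p = 6.27e-06). *Gm10704* on chromosome 3 measured 29.6, 30.5 and 28.5 in wild type and 167, 211, 217 and 172 in *Fezf2*-/- (log2 fold change 2.65, SE 0.13, limma adjusted p = 2.38e-06). *Gm6123* on chromosome 1 measured 14.4, 29.5 and 20 against 128, 127, 124 and 120. *Gm10020* on chromosome 15 measured 226, 243 and 232 against 681, 646, 675 and 596. Beside them the 2 *Fezf2*-/-; *Fezf2-EnR* libraries had 221 and 240 for *Gm10704*, 131 and 127 for *Gm6123* and 615 and 642 for *Gm10020*. These 4, which had the highest rises of the 6, were far higher in every *Fezf2*-/- library than in any wild type library. Reads of such copies can come from their parent genes, and the exons of *Gm10704* overlap those of *Ssr2*, so these levels are uncertain as well.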

How the data were processed

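P0 cortices of 3 genotypes were profiled by bulk RNA-seq, 1 library per mouse, and groups and litters were read from the labels. The values the authors deposited are a normalized signal, read counts divided by a DESeq size factor, in 1 table. The labels' processing notes name mm10, Bowtie, STAR and DESeq, and the counting tool, annotation and use of strand are not given in the sources used here. In each library 100.0% of low values were whole multiples of 1 read within a tolerance of 0.02. Libraries bc204 (*Fezf2*-/-) and bc208 (*Fezf2*-/-; *Fezf2-EnR*), where 1 read is worth close to 1, were left out of count tests, so those cover 7 libraries. On them edgeR 4.0.16 called 130 genes and DESeq2 1.42.0 called 318. The main test was limma 3.58.1 in R 4.3.3 on log2(normalized value + 1), since no raw counts were used, with lmFit and an eBayes trend, all 9 libraries in one fit, for genes with a mean of at least 10, and adjusted p-values are Benjamini-Hochberg over all genes tested. In simulated data for this comparison with 200 of 16197 genes changed, the 3 tests were checked before use. The simulated counts had the same spread setting for every gene and no litter effect, so they cannot show how the tests behave with litters or uneven spread. Gene names, chromosomes and coordinates are those of GENCODE M21 (GRCm38), which held 24595 of the 24624 identifiers.

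Members, lists, alternatives and tests were chosen with earlier results of these data known. Genes described are *Fezf2*, the 15 largest rises and 15 largest falls among called genes whose 2 genotypes do not overlap and whose mean reaches 50, other called genes, and called or leading members of the gene lists. Predicted genes and pseudogenes among the rises, and genes taken as named by the study, got less room. The labels do not say that replicates share more than a litter, and p-values measure the spread between these mice. A floor of 3 reads covers counting error only. The alternatives were other pseudocounts, filters, scalings, thresholds, samples, a litter block and count tests. Some genes of the lists are counted but not reported here by name.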

Additional observations from a re-analysis of the deposited data

Results flagged for a closer look

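Among the 4 *Fezf2*-/- libraries, 12 of 184 genes checked had 1 library far from the other 3, judged by its gap to the nearest other as a share of the group's range (Dixon's test at 95%), and chance gives about 1 in 20 groups. In replicate bc204 *Tac1* was 317 against 39.9 to 74.1 (gap 0.877 of the range) and *Adora2a* 368 against 79.2 to 111 (0.889). The same library was lowest in *Zfpm2* (148 against 180 to 186, 0.860) and *Nxph4* (126 against 163 to 169, 0.874), and highest in *1500035N22Rik* (196 against 161 to 165, 0.887). Replicate bc206 was lowest in *Tle4* (820 against 977 to 990, 0.925) and in *Nefl*, a neurofilament gene (760 against 1166 to 1198, 0.927). Replicate bc207 was highest in *Plppr4* (3304 against 2760 to 2830, 0.871), *Slc17a6* (1296 against 975 to 1025, 0.842) and *Nr4a2* (4796 against 3357 to 3575, 0.849). It was lowest in *Schip1* (2379 against 2543 to 2563, 0.895) and in *Iqschfp*, which shares its exons (2302 against 2429 to 2444, 0.894).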

How the results depend on the processing

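The 139 called genes kept their sign in every alternative fit in which they were tested. Their number was 125 with litter as a block (96 of them among the 139), 130 with edgeR (94 shared) and between 109 and 153 under other pseudocounts, filters and scalings. It moved to 221 with the 2 genotypes only, 233 within litter m1 alone, 318 with DESeq2, 76 without a trend and 64 at an adjusted p under 0.01. Leaving out each library in turn gave 66 to 217 genes, the lowest without wild type replicate bc201, and 60 of the 139 were called in all 9 such fits. Without replicates bc202, bc203, bc204, bc205, bc206 and bc207 the number was 71, 88, 100, 88, 87 and 94, and it was 214 and 217 without *Fezf2*-/-; *Fezf2-EnR* replicates bc208 and bc209. Alternatives added after seeing the data gave 81 genes in male libraries only, 129 with limma on the 7 libraries of the count tests, 139 with the 2 genotypes without replicate bc204 and 1752 at an unadjusted p under 0.05. The share called higher was 69.8% in DESeq2 against 59.7%. Of 5114 results of single genes under alternatives, 4079 kept their direction and side of the threshold, 861 lost a call, 156 gained one and 18 changed sign. Leaving out each library in turn put *Sox5* between -0.13 and 0.03, *Tbr1* between -0.06 and 0.02 and *Bcl11b* between -0.26 and 0.04. *Sox5* was 0.09 with litter as a block, 0.04 in litter m1 and 0.03 in the 5 fits without replicate bc204. *Tbr1* was 0.03 with the litter block and edgeR, 0.02 with DESeq2 and without replicate bc204, and 0.01 without bc205, without bc201 and in male libraries. *Bcl11b* was 0.04 without replicate bc206 and *Adora2a* -0.10 with the litter block. The cause of these changes was not tested. No paired analysis was possible because the replicate numbers are not shared between genotypes, and litter m1 alone held both. Depth limits genes such as *Lum* and *Fzd10*, which rest on few reads per library.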

Other observations

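Some groups of called genes had no place in a comparison above. Transcription factors that rose outside the lists included *Dmrt2*, a factor with a DM domain, at 23.7, 15.8 and 19 in wild type and 97.4, 43.6, 82.4 and 59.8 in *Fezf2*-/- (log2 fold change 1.76, SE 0.32, limma adjusted p = 0.0296). It was not called in the litter-block fit (adjusted p = 0.0925) or without bc201, bc202, bc203, bc204, bc206 or bc207 (highest 0.171). *Serpina3n*, a secreted protease inhibitor, measured 12.7, 13.7 and 10.5 against 72.3, 26.1, 50 and 50.7 (log2 fold change 1.86, SE 0.30, limma adjusted p = 0.018), and was not called with the block (adjusted p = 0.0565) or without bc201, bc202, bc203, bc206 or bc207 (highest 0.0753). *Eepd1*, an endonuclease family member, was almost equal within each genotype, at 198, 180 and 180 against 373, 358, 346 and 350 (log2 fold change 0.94, SE 0.08, limma adjusted p = 0.000282). *Btbd11* measured 794, 755 and 692 against 1237, 1193, 1408 and 1349 (log2 fold change 0.79, SE 0.08, limma adjusted p = 0.000716). *Galnt14*, an enzyme that starts O-linked sugar chains, measured 373, 386 and 347 against 549, 555, 662 and 619 (log2 fold change 0.69, SE 0.09, limma adjusted p = 0.00577). *Btbd11*, *Eepd1* and *Galnt14* were called in all 9 fits that leave out 1 library and in the litter-block fit.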
